A study of Rattus norvegicus with 4 samples.

Results

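The folding machinery and stress regulators of the endoplasmic reticulum (ER) were examined in scrapings of the rat oxyntic mucosa, the part of the stomach lining that makes acid. All 10 genes looked for were on the chip, out of 10411 genes named there: the chaperones Hspa5, Hsp90b1, Calr and Canx, the disulfide isomerases Pdia3, Pdia4 and Pdia6, and the regulators Xbp1, Ddit3 and Atf4. They were found by the gene symbol of the platform annotation, which gave 13 of 15866 probe sets, a probe set being the group of probes that reports 1 signal for a transcript. Canx had 3 probe sets, Pdia3 had 2, and the others had 1 each.

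The samples came from female Sprague-Dawley rats of 8 weeks, with tissue taken at 21 days; Octreotide LAR was given at 5 mg per animal. Octreotide mimics the inhibitory peptide somatostatin but persists longer, and the LAR form releases it slowly from a depot. One RAE230A chip held RNA pooled from 8 animals given the LAR-vehicle, and 3 chips each held RNA pooled from 2 of 6 animals given Octreotide LAR, called pools 1 to 3. All animals were fasted overnight before anaesthesia. For the vehicle sample, the title (LAR-vehicle) was followed, although the source name reads octreotide LAR. Pooling hides the spread between single animals, and the vehicle group is 1 chip, so its own spread was not measured. Each treated chip held RNA of other animals, so the spread over them is that between pools.

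Proteins bound for secretion or for membranes enter the ER unfolded. There, Hspa5 and Hsp90b1 hold them, the lectins Calr and Canx retain sugar-bearing chains, and isomerases of the Pdia family form and reshuffle disulfide bonds. When unfolded protein builds up, the unfolded protein response raises these genes through Atf6 and Xbp1, while the kinase Eif2ak3 favours the translation of Atf4, which can raise Ddit3. Both Xbp1, through splicing of its messenger RNA, and Atf4, through translation, are controlled largely after transcription, and a chip signal reads neither step. Chief cells, which make pepsinogen, are the classic ER-rich secretory cells of the oxyntic gland.

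A promoter sequence that links several of these genes is the ER stress response element, which is bound by NF-Y at CCAAT and by Atf6 or Xbp1 at CCACG. It was searched as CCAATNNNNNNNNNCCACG on both strands of windows from 250 bases before to 50 bases after the annotated starts, taken from RefSeq (build GRCr8). Of the 8 members matched there by symbol, 5 held the exact element (62.5%), against 22 of all 33469 windows (0.0657%), the members' own included. The element was searched because it is known from promoters of ER chaperone genes. These shares therefore describe the members and do not test them. The 6 exact elements are shown because they are what most of the chaperone promoters share. Each is read in the direction of the element, with capitals for the fixed letters:
Hspa5: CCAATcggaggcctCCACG
Hsp90b1, distal: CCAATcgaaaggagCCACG
Hsp90b1, proximal: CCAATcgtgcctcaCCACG
Calr: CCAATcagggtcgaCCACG
Canx: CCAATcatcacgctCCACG
Xbp1: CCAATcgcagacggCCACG

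Distances were counted back from the annotated start to the element's first base in the gene's direction. The Hspa5 element began 43 bases before the start and lay on the gene strand, as did those of Xbp1 at 65, of Canx at 230 and the distal one of Hsp90b1 at 176. The proximal Hsp90b1 element, at 72, and that of Calr, at 232, lay on the opposite strand. When 1 of the 10 fixed letters was allowed to differ, Pdia4 and Ddit3 joined, so that 7 of 8 members (87.5%) held an element, against 1.41% of all windows. These next 2 elements, both on the opposite strand and beginning 101 and 90 bases before the start, are shown with the differing letter in lower case:
Pdia4: CCAATcaccggctgCCACt
Ddit3: CCAATcagaaagcggCACG

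Hsp90b1 held 2 more such elements, which makes 10 in all. In all 10 the spacer began with C, the letter after CCAAT. Among the 23 exact elements of all windows, 13 had C there. The 2 sets overlap and differ in kind: the 23 include the 6 exact elements of the members, and the 10 include 4 with 1 letter differing. Atf4 held no element in its window. CCAAT alone was in 37.5% and CCACG alone in 31.6% of all windows, and the element joins them at a fixed spacing. The letters of 2 further stress motifs, TGACGTGG (known as a site for Xbp1 and Atf6) and TGATGNAAT (of the type bound by Atf4), were searched on both strands too. They were in 0.595% and 1.09% of all windows and in none of the 8 members' windows. A match is a description of letters, not a measured binding site.

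**Figure D1:**
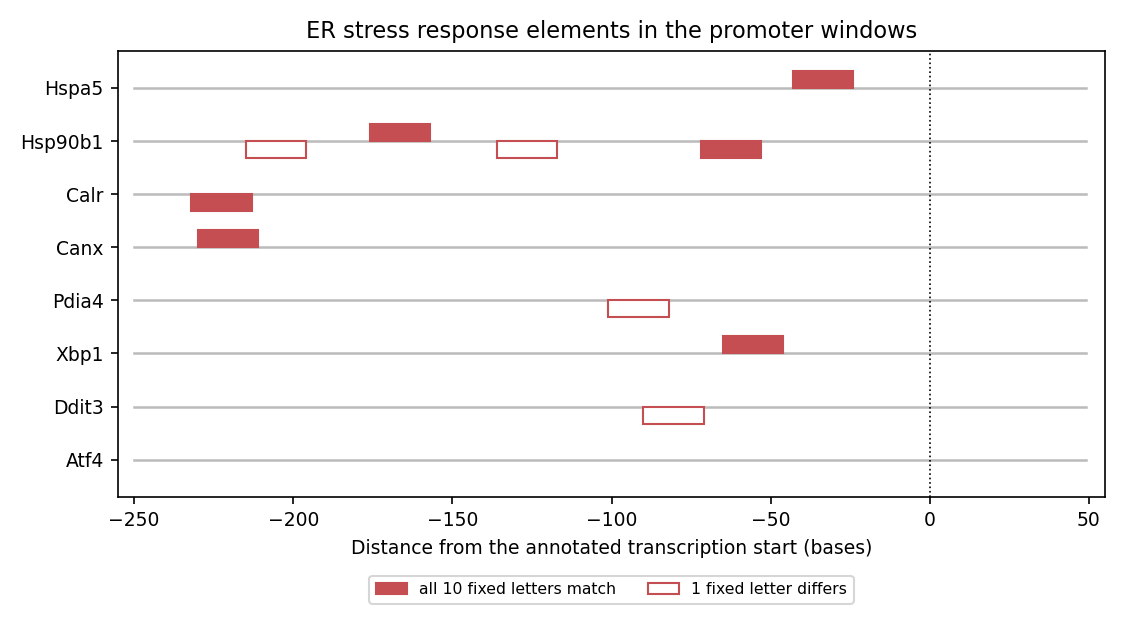
Position of the ER stress response element in the promoter windows of 8 members, in bases from the annotated start (dotted line). Filled boxes match all 10 fixed letters and open boxes differ at 1; boxes above a line lie on the gene strand and boxes below it on the opposite strand. Hsp90b1 holds 4 elements, and Atf4 none.

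The bases before the start of Hspa5 and Hsp90b1 show the element in its setting, with exact elements in capitals and the annotated start just after the last letter. The Hspa5 stretch is chr3:38452766-38453015 on the plus strand, and the Hsp90b1 stretch is chr7:23012294-23012543 on the minus strand (both GRCr8, 250 bases). Hspa5 holds its element close to the start, while Hsp90b1 holds a pair facing opposite ways:
Hspa5 promoter: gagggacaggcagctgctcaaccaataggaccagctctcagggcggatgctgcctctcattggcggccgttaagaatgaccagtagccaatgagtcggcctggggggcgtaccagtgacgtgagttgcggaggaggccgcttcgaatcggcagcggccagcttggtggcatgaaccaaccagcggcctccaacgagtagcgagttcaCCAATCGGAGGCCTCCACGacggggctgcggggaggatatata
Hsp90b1 promoter: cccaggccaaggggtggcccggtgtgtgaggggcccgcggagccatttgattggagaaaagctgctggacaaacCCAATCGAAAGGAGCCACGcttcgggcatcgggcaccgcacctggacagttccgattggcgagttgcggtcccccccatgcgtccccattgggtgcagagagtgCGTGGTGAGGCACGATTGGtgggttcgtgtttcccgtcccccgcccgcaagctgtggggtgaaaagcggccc

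The comparison of Octreotide LAR with LAR-vehicle asked which transcripts of the mucosa differed after the depot analogue. None of the 13 ER probe sets passed the threshold of 0.05 (limma, Benjamini-Hochberg adjustment over 9520 tested probe sets), and none had an unadjusted p under 0.05. Over all tested probe sets, 0.105% were called and 4.57% had an unadjusted p under 0.05. All 13 differed from the vehicle chip by less than 0.5 on the scale of log2(signal + 16), on which every difference here is given. The adjusted p was 0.9998 for each of the 13. Of the 95% intervals, 13 lay within a 2-fold difference either way and 10 within a 1.5-fold difference, so smaller differences were not resolved. With 1 vehicle chip, an exact permutation of the 4 chips could not give a p under 0.25.

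The 10 probe sets of the chaperones and isomerases were mostly lower in the mean, 9 of 10, with a median log2 difference of -0.16. They read 7 genes, with Canx and Pdia3 counted more than once. Over all tested genes, each by its brightest probe set, 50.2% were lower in the mean. In 6 of the 10 probe sets all treated chips lay below the vehicle chip. The 3 regulator probe sets leaned the other way, with 3 of 3 higher in the mean and 2 of 3 above the vehicle chip on all treated chips. Without pool 1, 4 values near 0 turned: Atf4 to -0.014, Pdia4 to -0.042, the bright Pdia3 probe set to 0.014 and the brightest Canx probe set to 0.011. Over all 13, 6 probe sets lay below the vehicle chip on every treated chip (46.2%) and 2 above (15.4%). Over all tested probe sets these shares were 24.0% and 25.0%. The 13 share their chips and are not replicates of each other, and they all rest on 1 vehicle chip. Their median log2 difference was -0.087, against -0.0031 over all tested probe sets, and it was -0.052, -0.12 and -0.062 without pool 1, 2 or 3. Their median size of difference was 0.14, against 0.17.

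**Figure D2:**
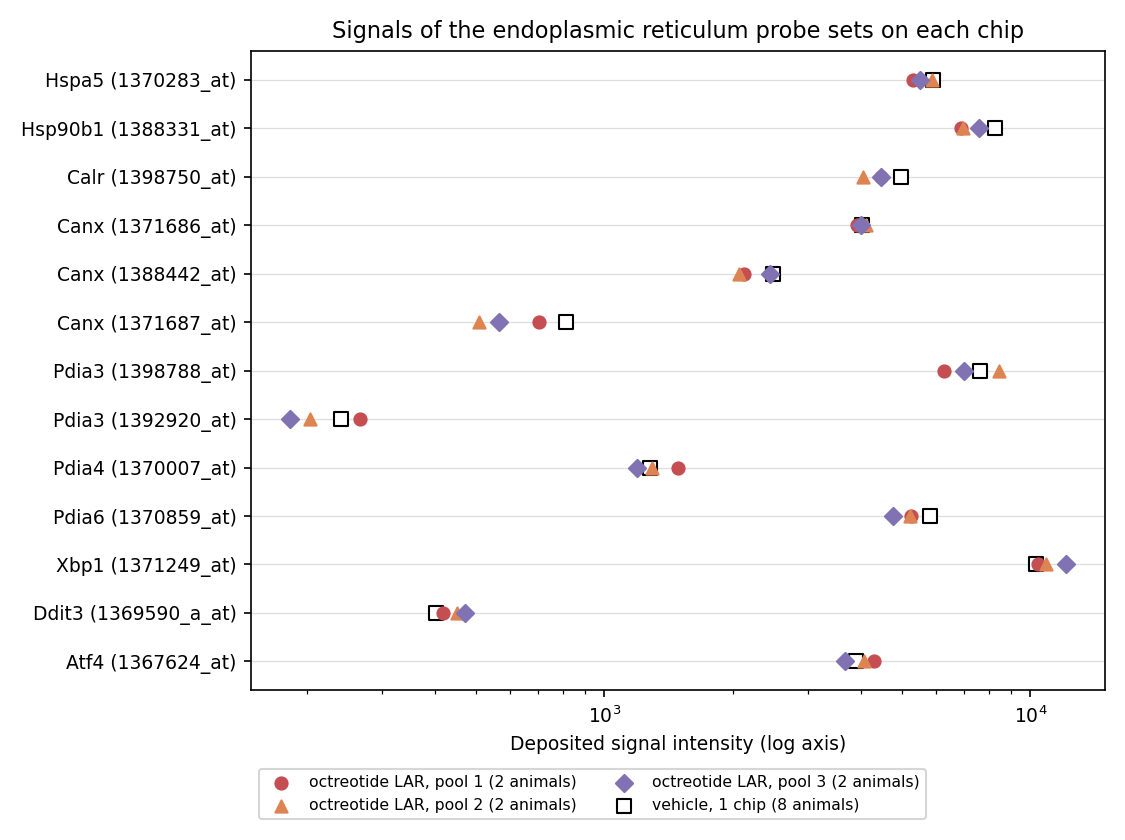
Deposited signal (log axis) of each ER probe set on the vehicle chip (open squares) and on the 3 treated chips (coloured symbols). Signals of different probe sets are not comparable with each other. The vehicle square lies to the right of all treated symbols for Hspa5, Hsp90b1, Calr, Pdia6 and 2 of 3 Canx probe sets, and to the left of them for Xbp1 and Ddit3.

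Hspa5, the Hsp70 of the ER lumen (also BiP or GRP78) and the standard marker of ER stress, had a vehicle signal of 5908, and signals of 5302, 5890 and 5512 on pools 1, 2 and 3. Pool 2 was almost at the vehicle value, and the other pools lay slightly under it. The log2 difference was -0.087 with an SE of 0.16 and a 95% interval of -0.42 to 0.25, which spans 0.746-fold to 1.19-fold. A rise of 1.5-fold or more lay outside this interval.

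Hsp90b1, the Hsp90 of the ER lumen (also GRP94), had 8257 on the vehicle chip and 6858, 6960 and 7578 on the treated chips. All treated chips lay below the vehicle chip, and the treated mean was 7132 ± 390 (SD, n = 3). The log2 difference was -0.21, with an interval from -0.54 to 0.12 and an unadjusted p of 0.19 (limma). Hsp90b1 did not differ past the threshold in either direction.

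Calr, the soluble lectin chaperone calreticulin, which also stores calcium, had 4968 on the vehicle chip and 4453, 4045 and 4467 on the treated chips. All its treated values lay below that of the 1 vehicle chip, and the log2 difference was -0.20 with an interval from -0.55 to 0.14. Canx, its membrane-bound relative calnexin, was read by 3 probe sets that the platform annotation ties to the same sequence entry, and they did not give the same answer. The brightest had 4022 on the vehicle chip and 3914, 4105 and 4004 on the treated ones, and its log2 difference was -0.0055. Its vehicle value lay within the treated range, which was the tightest of all 13, with a coefficient of variation of 2.38%. The second had 2483 on the vehicle chip against 2127, 2076 and 2449, and pool 3 was nearly at the vehicle value. The dimmest had 814.4 against 702.5, 507 and 565.6, all lower. Its log2 difference was -0.46 (interval -0.97 to 0.046). That was the largest difference among the 13 probe sets and the smallest unadjusted p, 0.071 (limma adjusted p = 0.9998). The 3 probe sets differed by -0.0055, -0.17 and -0.46 in order of brightness, so no single value is given for Canx.

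**Figure D3:**
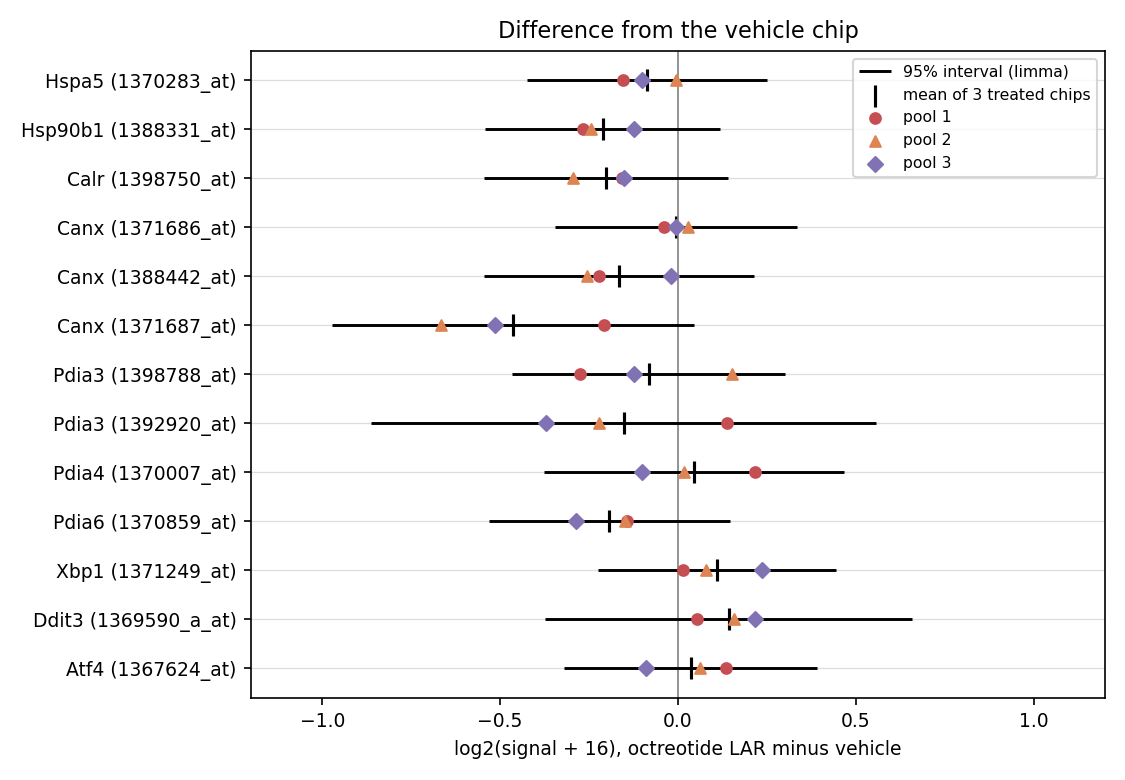
Difference of log2(signal + 16) between treated and vehicle chips for each ER probe set. Coloured symbols are single pools against the 1 vehicle chip, black ticks are means over 3 treated chips, and bars are limma's 95% intervals. Every bar crosses 0, and the dimmest Canx probe set, at -0.46, comes nearest to clearing it.

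Among the isomerases, Pdia3 (ERp57), which works on glycoproteins held by Calr and Canx, varied most between pools. Its bright probe set had 7601 on the vehicle chip and 6281, 8444 and 6972 on pools 1, 2 and 3, so the pools lay on both sides of it. The SD over the treated chips was 1105, a coefficient of variation of 15.3%. Its dim probe set had 241 against 266.5, 204.3 and 182.9, in which pool 1 was the highest, while pool 1 was the lowest in the bright one. The differences were -0.082 and -0.15, and both intervals included 0.

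Pdia4 (ERp72), an isomerase with an additional thioredoxin-like domain, had 1279 on the vehicle chip and 1489, 1296 and 1190 on the treated chips. The vehicle value lay inside the treated range, and the log2 difference was 0.044. It was the single probe set of the chaperones and isomerases that was higher in the mean. Pdia6 (P5), an isomerase that works with Hspa5, had 5804 against 5256, 5230 and 4758. All treated chips were lower there, with a log2 difference of -0.19 (interval -0.53 to 0.15).

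Xbp1, the transcription factor needed for the ER of secretory cells, had 10293 on the vehicle chip and 10402, 10874 and 12122 on the treated chips. Pool 1 was just above the vehicle value and pool 3 the farthest from it. The log2 difference was 0.11 with an interval from -0.22 to 0.44, and it was 0.037 with quantile normalization and 0.047 without pool 3. Whether its probes tell the splice forms apart was not examined, so splicing was not measured.

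Ddit3 (CHOP), a factor that promotes cell death under lasting ER stress, was dim, with 403.1 on the vehicle chip and 418.6, 451.9 and 470.9 on the treated chips. All treated chips were slightly higher, with a log2 difference of 0.14 (interval -0.37 to 0.66). That was the highest difference of the 13 probe sets, 1.10-fold, and its interval reached 1.58-fold. Atf4, which drives amino acid supply and redox genes under stress, had 3906 against 4288, 4076 and 3672. Pools 1 and 2 lay above the vehicle chip and pool 3 below, and the log2 difference was 0.035.

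The coefficient of variation over the treated chips ran from 2.38% to 19.9%, with a median of 7.80%, against a median of 13.0% over all tested probe sets. Of the 13 probe sets, 11 had a mean signal above the median of all tested, 496.05, and the part of signal level in their smaller spread was not tested. No pool was high or low throughout. Pool 1 was the lowest treated chip for 6 probe sets and the highest for 5, pool 2 for 3 and 3, and pool 3 for 4 and 5. The median log2 difference of the 13 was -0.14, -0.0044 and -0.10 on pools 1, 2 and 3.

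The rest of the secretory folding system was read in 7 lists of 149 genes, of which 129 were on the chip and 124 bright enough to test, each by its brightest probe set. None passed, higher or lower (limma; the smallest adjusted p was 0.60), and 7 had an unadjusted p under 0.05, 4 higher and 3 lower. That is 5.65% of the 124, against 4.55% of all 7150 tested genes, of which 0.126% were called. In the mean, 80 of the 124 were lower (64.5%), against 50.2% of all tested genes. The median log2 difference was -0.056, against -0.00087 over all tested genes. All treated chips lay below the vehicle chip for 32.3% and above it for 20.2% of the 124, against 24.0% and 25.2% of all tested genes.

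The lists of folding helpers were lower in the mean more often than not. Of the luminal chaperones and cochaperones, 16 of 22 tested were lower in the mean and none passed, with a median log2 difference of -0.088. Ppib, a prolyl isomerase (cyclophilin B), had 9015 on the vehicle chip and 8557, 8492 and 9512 on the treated chips. Fkbp2, another prolyl isomerase, had 3735 against 3322, 4542 and 3183, so both straddled the vehicle value. Sdf2l1, a partner of Hspa5 in the lumen, had 2340 against 2146, 1996 and 1814, all lower. The smallest unadjusted p of the list was that of Fkbp10, a collagen chaperone, with 109.7 against 285.8, 165 and 159.4. Its vehicle signal lay under the filter level of 144.7, so it was tested through its treated signals.

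Of the other disulfide isomerases and oxidases, 10 of 14 were lower in the mean, with a median of -0.080. P4hb, the founding protein disulfide isomerase, had 7217 on the vehicle chip against 7274, 8014 and 7806, all higher. Pdia2, an isomerase best known from the pancreas, had 7998 against 8119, 7138 and 6748, and Txndc5 had 2697 against 2790, 2663 and 2597. Neither lay to one side. Ero1a, the oxidase that recharges the isomerases, had the smallest p of the list, with 1307 against 1570, 1893 and 1888. Its log2 difference was 0.44 (limma unadjusted p = 0.036, adjusted p = 0.9998), and its dimmer probe set differed by 0.34 in the same direction.

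In glycoprotein folding and oligosaccharyl transfer, 9 of 13 were lower in the mean, with a median of -0.046. Rpn1 and Rpn2, subunits of the enzyme that attaches sugars to new chains, had 9451 and 5451 on the vehicle chip. Rpn1 had 9553, 8766 and 8102 on the treated chips, on both sides of the vehicle value, and Rpn2 had 4933, 4891 and 4817, all lower. Stt3b, a catalytic subunit of the same enzyme, had 3460 against 4056, 3769 and 4074, all higher. Dad1, a small subunit, had the smallest p of the list, with 3466 against 2812, 2703 and 2575 and a log2 difference of -0.36 (limma unadjusted p = 0.047, adjusted p = 0.9998).

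Of the genes for translocation into the ER and signal peptide processing, 18 of 23 were lower in the mean and 11 of 23 on all treated chips. Over all tested genes these shares were 50.2% and 24.0%. The median of the list was -0.098, the lowest of the 7 lists, and all its values rest on the same 1 vehicle chip. Ssr3, a subunit of the translocon-associated complex, had 5827 against 4718, 6466 and 6212 in its brightest probe set, and its other 2 probe sets differed by 0.14 and -0.52. Tram1, a translocation helper, had 4786 against 5903, 6485 and 5995, all higher, at a log2 difference of 0.35 (limma unadjusted p = 0.040, adjusted p = 0.9998). A second Tram1 probe set, too dim to test, had 148.3 against 119.3, 153.5 and 116.5, on both sides of the vehicle value. Sec61g, a subunit of the channel, had 5144 against 5786, 5625 and 4873. Spcs2, of the signal peptidase, had the smallest p of the list, with 2531 against 1764, 2058 and 1816, all lower, and a log2 difference of -0.43 (limma unadjusted p = 0.031, adjusted p = 0.9998).

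**Figure D4:**
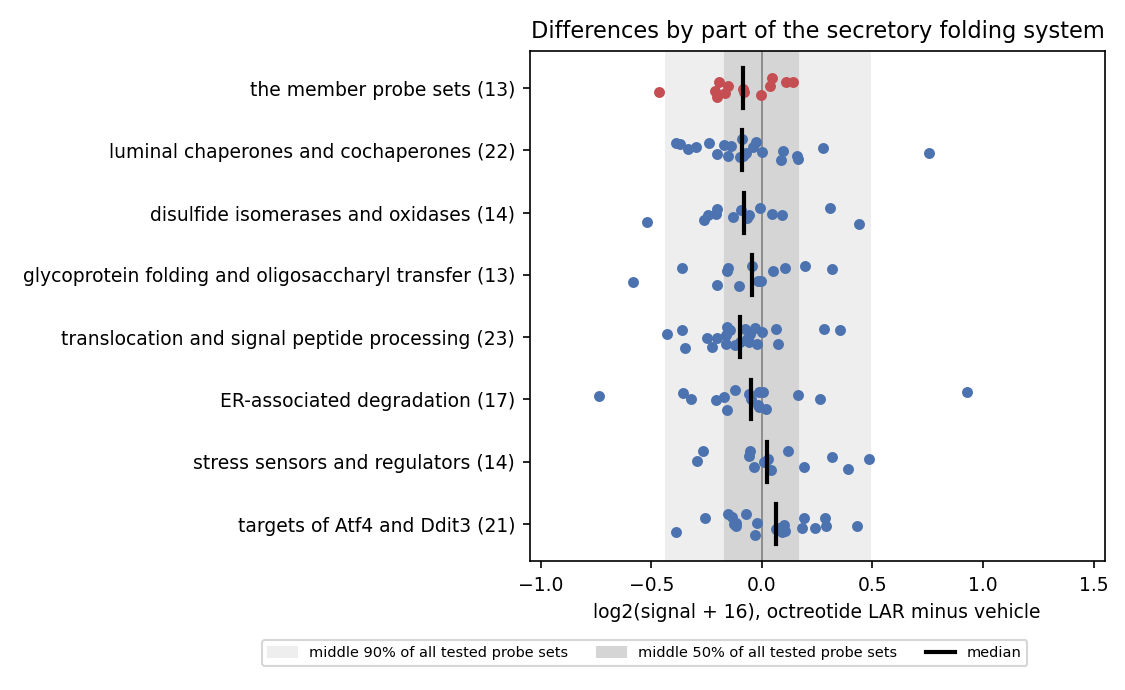
Difference of log2(signal + 16) between treated and vehicle chips for the 13 ER probe sets (red) and for the tested genes of 7 related lists (blue, 1 point a gene, vertical scatter added for visibility). Black bars are medians, and grey bands hold the middle 50% and 90% of all tested probe sets. The medians run from -0.098 for translocation to 0.065 for targets of Atf4 and Ddit3.

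Of the genes of ER-associated degradation, which returns misfolded proteins to the cytosol, 12 of 17 were lower in the mean, with a median of -0.050. Selenos, a selenoprotein of the retrotranslocation complex, had 4311 against 4148, 3941 and 3790, and Erlec1, a lectin of the pathway, had 3866 against 3333, 3318 and 3749. Both were lower on all treated chips. Vcp, the ATPase that pulls proteins out, had 3241 against 2904, 3225 and 3275. Ube2g2, a ubiquitin-conjugating enzyme, had the smallest p of all 124 genes, with 253.3 against 586, 392.9 and 528.7. Its log2 difference was 0.93, higher on all treated chips (limma unadjusted p = 0.0044, adjusted p = 0.60). Syvn1 (HRD1), the ubiquitin ligase of the pathway, named after its values were seen, had 1688 against 706, 1177 and 1225, a log2 difference of -0.74 (limma adjusted p = 0.987). Both passed the threshold when pool 2 was left out (limma adjusted p = 0.028 for Ube2g2 and 0.036 for Syvn1), and under none of the other 10 alternatives fitted to probe sets.

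The sensors and regulators of stress had 9 of 14 genes higher in the mean, with a median of 0.023. Eif2s1, the translation factor that Eif2ak3 phosphorylates, had 1234 against 1134, 1154 and 1329, and Creb3l1, a membrane-bound factor of secretory cells, had 1188 against 1159, 1137 and 1290. Mbtps1, the protease that releases Atf6, had 1040 against 1145, 1052 and 1199, slightly higher on all treated chips. The smallest p was that of Creb3, a relative of Creb3l1, with 346.8 against 476.4, 470.8 and 432.5 (limma unadjusted p = 0.13). The probe set of Eif2ak3 itself had 371.8 against 333.1, 356.3 and 384.6, and was named after its values were seen.

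Targets of Atf4 and Ddit3 were split, with 11 of 21 higher and 10 lower in the mean and a median of 0.065. Slc3a2, the heavy chain of amino acid transporters, had 2757 against 2682, 2579 and 2321, and Nupr1, a small stress protein, had 2616 against 1917, 2527 and 2675. Aars1, the alanyl-tRNA synthetase, had 2383 against 1936, 1917 and 1619, all lower. Atf5, a relative of Atf4, had the smallest p, with 881.1 against 1285, 1208 and 1089 and a log2 difference of 0.43 (limma unadjusted p = 0.047, adjusted p = 0.9998). Atf3, a stress-induced factor named after its values were seen, was too dim to test: its signal was 22.4 on the vehicle chip and 89.5, 119.2 and 155.2 on the treated chips.

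The stress response element also marked genes outside the 10. Of the 21 genes whose windows held it, 16 were no members, 12 of these were on the chip and 7 were bright enough to test. None passed and none had an unadjusted p under 0.05 (limma). In the mean 6 were lower and 1 higher, with a median log2 difference of -0.11, while 50.2% of all tested genes were lower in the mean. The 7 tested included 3 folding genes, which were named after their values were seen and were already counted in the lists above. Dnajc3, a cochaperone of Hspa5, had 1272 on the vehicle chip against 1227, 1216 and 1149. Creld2, a secreted ER stress protein, had 1087 against 971.4, 1008 and 947, and Ero1b, an oxidase of secretory cells, had 2816 against 2057, 2393 and 2617. All 3 were lower on every treated chip, with log2 differences of -0.087, -0.15 and -0.26. The other 4 tested lay on both sides of the vehicle value, and over all tested genes 24.0% lay below it on every treated chip. Birc5, too dim to test and also named after its values were seen, was higher on every treated chip, with 62.4 against 126, 165.4 and 165.3. The other untested genes lay on both sides of the vehicle value.

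Whole-tissue facts bear on all of these values. In scraped mucosa, fewer cells of a type and less RNA per cell cannot be told apart. The gastric markers Atp4a and Atp4b, which encode the parietal proton pump, were at 26693 and 39974 with vehicle and were not called. Nor were the other 3 parietal markers tested: Kcnq1 and Kcne2 lay below the vehicle value on all treated chips, with log2 differences of -0.58 and -0.37, and Aqp4 lay on both sides. Median signals ran from 223.7 to 233.4 over the 4 chips. Of the 6 chief cell markers, 5 were tested, 5 of 5 were lower in the mean and none was called, with a median log2 difference of -0.14. Over all tested genes 50.2% were lower in the mean. The untested marker, Lipf, was dim and higher on every treated chip, with 22.1 against 79.8, 112.7 and 87.8. The summed signal of the 6 chief cell markers was 103169 on the vehicle chip and 83664 to 90316 on the treated chips. Much of that gap was Cym, the protease chymosin, with 19071 against 3952, 8204 and 7561. Without Cym, a sum added after the values were seen, it was 84098 against 85213, 82113 and 76103, so pool 1 lay above the vehicle chip. Of the 12 squamous forestomach markers, 11 were tested, all 11 were higher on every treated chip and 6 were called. Among all tested genes, 25.2% were higher on every treated chip and 0.126% were called. Of the 11, 5 had a vehicle signal under the filter level and were tested through their treated signals, and 2 of the 6 calls were among them. The 6 calls became 0 without the filter, 1 without a trend of the spread, 4 under either scaling and 9, 10 and 9 without pool 1, 2 or 3. Their summed signal was 1904 on the vehicle chip and 6185 to 9655 on the treated chips. Of the 6 genes listed for plasma cells, 1 was on the chip. This gene, Cd79b, was at 14.7 to 20.9 on all chips, under the filter level. With the rest of the list missing, whether plasma cells were present was not measured. The part of these cell types in the ER values was not tested.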

How the data were processed

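The table the authors deposited holds a linear signal intensity for every probe set on each chip. The labels' protocols name an RNeasy kit for total RNA and biotin-labelled cRNA as target. For the signal algorithm, the scaling and the genome build, nothing is given in the sources used here. Trimmed by 2% at both ends, the mean signals of the 4 chips ran from 496.8 to 497.2, as a common scaling target would give, and such scaling hides a change in total RNA. Per the file headers, the chips shared 1 lot, 1 wash protocol and 1 hybridisation date, and each had its own fluidics module.

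Signals were transformed as log2(signal + 16), which understates differences of dim probe sets. Probe sets with a mean log2 level over all chips under the 40th percentile (a signal of 144.7) were left out, which left 9520; all 13 member probe sets passed. The test was limma's (version 3.58.1, R 4.3.3; lmFit, eBayes with a trend), two-sided, with Benjamini-Hochberg adjustment over all 9520. The test has 2 residual and 11.5 prior degrees of freedom, and it assumes that the lone vehicle chip varies like the treated ones. The fit was also run on simulated data in which all chips varied alike, so this assumption was not tested there. Probe sets were named by the platform annotation, updated by Entrez ID (12748 of the 12783 that name 1 gene matched), while 312 named several genes and 2771 are unnamed here. Lists use the brightest probe set of a gene. Named are all member probe sets and, in each list, the 3 brightest genes and the one with the smallest p. Eif2ak3, Syvn1, Atf3, Dnajc3, Creld2, Ero1b, Cym, Kcnq1, Kcne2 and Aqp4 were named after their values were seen. So were Birc5, Lipf, Hdc, Pla2g1b, Clps, Cel, Cpa1 and Cela2a. The members and lists were chosen with earlier results of these data known. Marker lists of surface mucous, mucous neck and enterochromaffin-like cells, pancreatic acinar cells and smooth muscle were also read. Their median log2 differences were 0.21, 0.56, -1.07, -1.38 and 0.0043, and that of the parietal markers was -0.065. The mucous neck value is that of 1 gene, since only 1 of the 2 listed was on the chip. The pancreatic list was split: Pla2g1b and Clps, the brightest, differed by 0.011 and -0.10, and Cel, Cpa1 and Cela2a by -1.40, -1.38 and -1.42. All 4 enterochromaffin-like markers were lower on every treated chip, and 1 of them, Hdc, was called (limma adjusted p = 0.0027). Among all tested genes, 24.0% were lower on every treated chip and 0.126% were called. The other lists named here held no call.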

Additional observations from a re-analysis of the deposited data

How the results depend on the processing

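No member probe set passed the threshold under any of 11 alternatives (another pseudocount, filter, scaling or moderation of the spread, or 1 treated pool left out), by limma. Of 142 member values under these, 138 kept their direction and 4 reversed, all without pool 1. Over the fits that left out 1 pool, Atf4 ran from -0.014 to 0.097, the brightest Canx probe set from -0.023 to 0.011, the bright Pdia3 probe set from -0.20 to 0.014 and Pdia4 from -0.042 to 0.12. Without pool 1 the dimmest Canx probe set had an unadjusted p of 0.015 (limma adjusted p = 0.47, and 0.47 to 0.999995 over all alternatives). The scalings moved the median of all tested probe sets by -0.0067 and -0.0045 and turned no member's direction. The count of calls over all probe sets, 10, became 0 of 15866 without a filter (776 with an unadjusted p under 0.05), 5 with quantile normalization, 5 with centring on the 75th percentile, 1 without a trend, and 31 to 55 when 1 pool was left out. The related lists had 0 calls, and 0 to 2 when 1 pool was left out: the 2 were Ube2g2 and Syvn1 without pool 2. Such fits use less data and the one vehicle chip again, so passing there is no firmer. No paired analysis was possible because the vehicle group was 1 pool, of other animals than the treated pools. The number of chips limits the precision.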
